A study of Mus musculus with 4 samples.

Results

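The neuromuscular junction is the synapse through which a motor nerve drives a muscle fibre, and the 10 genes described here encode its acetylcholine receptor and the proteins that cluster, serve or regulate it. They were chosen by symbol: Chrna1, Chrnb1, Chrnd, Chrne and Chrng for the receptor subunits, Musk, Rapsn and Dok7 for clustering, Ache for acetylcholinesterase and Runx1 for a transcription factor. In the deposited gene table of 25833 rows, of which the authors tested 14134, 9 of the 10 genes had a row of their own. Ache shared a row with its neighbour Ufsp1, so reads of both genes entered that value.

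RNA of gastrocnemius, a calf muscle rich in fast fibres, was sequenced from C57BL/6J mice aged 8 weeks, in 2 groups of 2 libraries called biological replicates. The first group were wild-type mice (WT), the controls for the knockout. The second were mice with a muscle-specific deletion of Fundc1 (Fundc1-MKO, MKO below), the gene of a mitophagy receptor in the outer mitochondrial membrane. The Cre driver, the deleted exon and the sex of the mice were not stated in the labels. The table holds 1 FPKM value (fragments scaled to transcript length and library size) per gene and group with the authors' interval, so neither the spread between animals nor the depth of a library is known here. The comparison asks which transcripts differ in muscle of mice with the Fundc1 deletion. The words fell and rose are kept for genes whose q-value, as deposited by the authors, was under 0.05.

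In mammalian muscle the receptor is built from alpha, beta and delta subunits with gamma before birth, and epsilon takes the place of gamma as the synapse matures. Agrin released by the nerve binds LRP4 and activates the kinase MuSK, with DOK7 as its activator inside the fibre, and rapsyn anchors the receptors in dense clusters. Nuclei under the synapse transcribe these genes strongly, and nerve activity represses several of them elsewhere along the fibre. Loss of innervation therefore raises several, though not all, of the receptor subunit genes, and Musk and Runx1, in rodent muscle. Many of these promoters are known to use E-boxes, which bind myogenic factors such as MyoD and myogenin, and some an N-box, which binds ETS-family factors such as GABP.

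Stretches upstream of 4 of these genes are shown because they hold an E-box with the centre GC (CAGCTG). Sequences are from RefSeq's GRCm38.p6 tables, the assembly of the mm10 build named in the submitters' processing notes, and are written 5′ to 3′ on the strand of the gene. For Chrna1 the 250 bases before the transcript start are chr2:73580339-73580588, and for Chrne they are chr11:70619195-70619444, both on the minus strand. For Chrng a stretch of 30 bases is chr1:87205655-87205684, and for Musk it is chr4:58285882-58285911, both on the plus strand. Capitals mark matches to the E-box CANNTG or to the N-box CCGGAA.
Chrna1: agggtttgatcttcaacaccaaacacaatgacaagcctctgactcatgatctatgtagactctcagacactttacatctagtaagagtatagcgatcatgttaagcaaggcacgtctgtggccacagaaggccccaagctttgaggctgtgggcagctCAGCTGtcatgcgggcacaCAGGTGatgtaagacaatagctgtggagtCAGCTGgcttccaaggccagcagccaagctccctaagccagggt
Chrne: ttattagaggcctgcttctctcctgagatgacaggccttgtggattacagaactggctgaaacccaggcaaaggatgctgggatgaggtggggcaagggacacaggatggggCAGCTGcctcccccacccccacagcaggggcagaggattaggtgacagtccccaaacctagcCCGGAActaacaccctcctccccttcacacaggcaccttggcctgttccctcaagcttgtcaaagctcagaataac
Chrng: aCAGCTGacaatgcagtggtcagaCAGCTG
Musk: gtgagttctcccCAGCTGgccacgtccatc

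Chrna1 had 3 E-boxes in its 250 bases, of which 2 were CAGCTG, beginning 92 and 44 bases before the start. Chrng also had 3 E-boxes and 2 CAGCTG, beginning 155 and 132 bases before its start. Chrne had 1 CAGCTG, beginning 138 bases before the start, and an N-box beginning 76 bases before it. Musk had 3 E-boxes, and its CAGCTG began 68 bases before the start. Of the 10 genes 8 matched the promoter table, with 10 start sites, and Chrnd and Rapsn did not. For Ache and the downstream starts of Dok7 and Runx1, the bases after the start were not found in a GENCODE M21 transcript of the gene. An E-box was found at 8 of the 10 start sites, at least 1 for each gene, and at 66.2% of all 32817 promoters of the table. CAGCTG, which is a subset of CANNTG, was found at 4 of the 10 start sites and at 13.0% of all promoters. The N-box was searched on both strands and stood at 2 of the 10 start sites, those of Chrne and the downstream start of Runx1, and at 12.0% of all promoters. The RUNX motif TGTGGT was found on neither strand at these 10 start sites and at 14.0% of all promoters. These matches describe the letters in the window and not bound sites, and Chrng, which held as many CAGCTG boxes as Chrna1, did not pass the test given below.

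**Figure D1:**
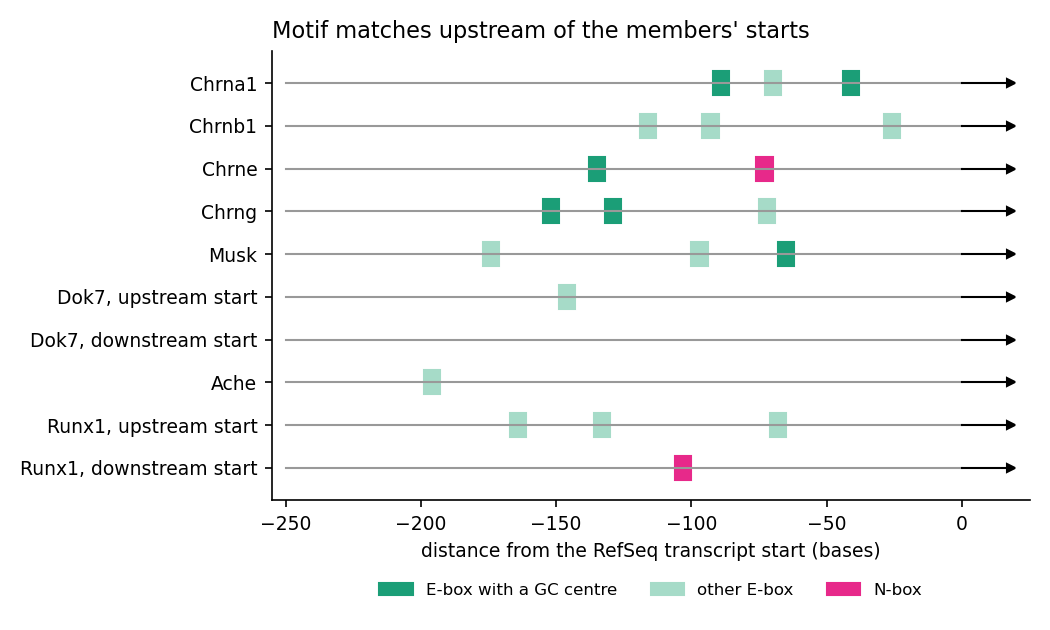
Motif matches in the 250 bases before the RefSeq transcript starts of 8 member genes, with distance from the start in bases on the x axis and an arrow at each start. Dark green boxes are E-boxes with the centre GC, light green boxes other E-boxes and pink boxes N-boxes. The map shows CAGCTG boxes at Chrna1, Chrne, Chrng and Musk.

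Fundc1 transcripts stood at 20.1 FPKM in WT but 4.23 in MKO, or 21.1% of WT, with q = 0.00338 in the authors' deposited table. Fibre genes dominated the tissue: Mylpf, the fast regulatory light chain, was at 9823 and 10437 FPKM, and Pvalb, parvalbumin, at 5705 and 6219. For 8 of 16 listed fibre genes, among them Acta1, Ckm and Ttn, the authors' mark for too many fragments left no MKO value. Tnni2 and Neb were the 2 of these 8 with a value in WT. In whole muscle, fewer synaptic nuclei and less RNA per nucleus cannot be told apart.

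Of the 9 members with their own row, 4 fell in MKO and none rose. They were the receptor subunits Chrna1 and Chrne, the kinase gene Musk and Runx1, with falls from 1.23-fold to 1.45-fold. Lower calls made up 2.25% of all tested rows and higher calls 0.92%. Regardless of calls, 7 of the 9 had the lower FPKM in MKO, beside 56.6% of all tested rows. The median log2 ratio of FPKM + 1 was -0.10 over the 9 members and -0.02 over all tested rows. Genes for the receptor's beta subunit and its anchor rapsyn, and the joint row of Ache and Ufsp1, were within 1.07-fold of WT.

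The authors' intervals overlapped between groups for all 10 rows, while they lay apart in 0.715% of tested rows. With the authors' test statistic taken as normally distributed, 2 of the 9 members, Chrna1 and Runx1, reached p under 0.05 without adjustment, as did 1.68% of tested rows. None passed Benjamini-Hochberg adjustment, which 0.198% of tested rows did. All 4 calls thus depend on how the authors' p-value was obtained.

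**Figure D2:**
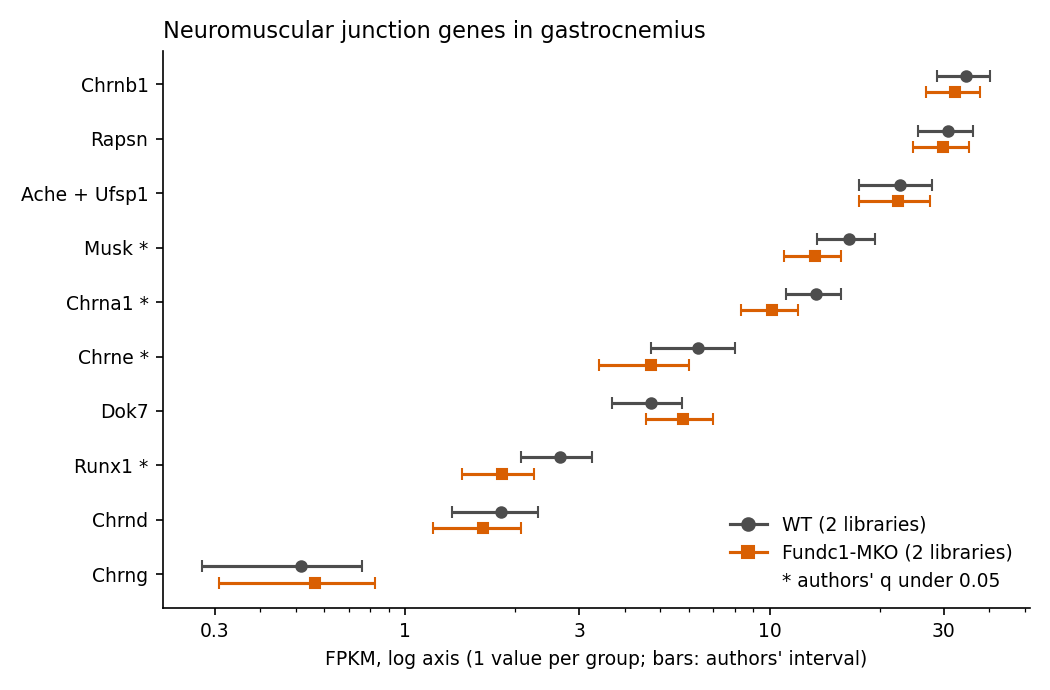
FPKM of each gene on a log axis in WT (grey circles) and Fundc1-MKO (orange squares), 1 value per group, with bars for the authors' interval and an asterisk where the authors' q was under 0.05. WT and MKO bars overlap in every row, and Chrna1, Chrne, Musk and Runx1 carry the asterisk.

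Of the 5 receptor subunit genes, Chrna1 and Chrne fell and the other 3 did not pass. Chrna1, which encodes the acetylcholine-binding alpha subunit, was at 13.4 FPKM in WT (interval 11.1 to 15.7) and at 10.1 in MKO (interval 8.35 to 11.9). The MKO value lay below the whole WT interval, although the intervals met at their edges. Chrna1 fell 1.32-fold, a log2 ratio of -0.40 with an SE of 0.18 computed from these bounds; the authors' deposited table gave q = 0.00338. Its row covers chromosome 2 from 73563281 to 73580338 in mm10, the span of a protein-coding gene transcribed from the minus strand.

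Chrne, which encodes the epsilon subunit of the mature synapse, was at 6.35 FPKM in WT (interval 4.71 to 8.00) and at 4.71 in MKO (interval 3.41 to 6.01). The MKO value stood at the lower bound of the WT interval. Chrne fell 1.35-fold, with a log2 ratio of -0.43, an SE of 0.27; the authors' deposited table gave q = 0.0413. The call was close to the threshold, and the gene overlaps 4930544D05Rik, a protein-coding gene on the opposite strand. That gene had its own row at 0.563 FPKM in WT against 0.636 in MKO, and the labels do not say that reads were assigned by strand.

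Chrng, which encodes the gamma subunit of the fetal receptor, was the lowest of all members. It was at 0.518 FPKM in WT (interval 0.278 to 0.759) and at 0.567 in MKO (interval 0.307 to 0.826). The groups overlapped almost fully, with a log2 ratio of 0.13; the authors' deposited table gave q = 0.938. Its ratio had a 95% interval of -0.79 to 1.05 on the log2 scale, which covers both a fall of the size of Chrne's and a larger rise.

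Chrnb1 and Chrnd gave values near WT. Chrnb1, the beta subunit gene, was at 34.5 FPKM in WT (interval 28.7 to 40.2) and at 32.2 in MKO (interval 26.8 to 37.6). Its log2 ratio was -0.10 with a 95% interval of -0.43 to 0.24; the authors' deposited table gave q = 0.735. Chrnd, the delta subunit gene, was at 1.83 FPKM in WT (interval 1.34 to 2.31) and at 1.63 in MKO (interval 1.19 to 2.08). The overlap was broad for both genes. For Chrnd the log2 ratio was -0.16 with a 95% interval of -0.70 to 0.38; the authors' deposited table gave q = 0.724, so a fall of the size of Chrna1's is inside its interval. Chrnd and Chrng lie 5740 bases apart on chromosome 1, and Chrnb1 and Chrne lie 0.819 Mb apart on chromosome 11.

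On the FPKM scale, which is per length and so allows levels to be set side by side, the 5 subunit genes summed to 56.5 in WT and 49.3 in MKO. Chrnb1 made up 60.9% of that sum in WT and 65.4% in MKO, Chrna1 23.7% and 20.6%, and Chrne 11.2% and 9.56%. Chrnd stood at 3.23% and 3.31% and Chrng at 0.917% and 1.15%. The order of the subunits, beta, alpha, epsilon, delta, gamma, was the same in both groups. The ratio of the adult to the fetal subunit transcript, Chrne over Chrng, was 12.3 in WT and 8.31 in MKO. The log2 change of that ratio was -0.56 with a 95% interval of -1.63 to 0.50, which includes no change.

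Of the clustering genes 1 fell and 2 did not pass. Musk, the receptor tyrosine kinase at the head of the agrin pathway, was at 16.4 FPKM in WT (interval 13.5 to 19.4) and at 13.3 in MKO (interval 11.0 to 15.7). The MKO value lay just under the WT interval, and the intervals overlapped. Musk fell 1.23-fold, with a log2 ratio of -0.30, an SE of 0.18; the authors' deposited table gave q = 0.0358. The row covers chromosome 4 from 58285715 to 58377878.

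Rapsn, which encodes the anchoring protein rapsyn, was at 30.7 FPKM in WT (interval 25.5 to 36.0) and at 29.9 in MKO (interval 24.7 to 35.1). The groups coincided, with a log2 ratio of -0.04, a 95% interval of -0.39 to 0.31; the authors' deposited table gave q = 0.959. A noncoding transcript on the opposite strand, Gm13778, overlaps the end of Rapsn in the annotation.

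Dok7, which encodes the adaptor that activates MuSK, went in the other direction. It was at 4.71 FPKM in WT (interval 3.69 to 5.73) and at 5.77 in MKO (interval 4.56 to 6.98). The MKO value stood just above the WT interval. Its log2 ratio was 0.29 with an SE of 0.22, and the authors' deposited table gave p = 0.00765 without adjustment and q = 0.130, above the threshold. A p under 0.05 before adjustment was found in 13.7% of tested rows. The ratio of Musk to Dok7 was 3.49 in WT and 2.31 in MKO, a log2 change of -0.59 with an SE of 0.28. This ratio, and the other ratios between members, were chosen after the values were seen.

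Ache encodes the esterase that ends transmission, and Ufsp1, which shares its row, a protease of the UFM1 pathway. The joint row was at 22.7 FPKM in WT (interval 17.6 to 27.8) and at 22.5 in MKO (interval 17.5 to 27.5). The groups were nearly equal, with a log2 ratio of -0.01, a 95% interval of -0.46 to 0.43; the authors' deposited table gave q = 0.997. The sign of this ratio turned when the medians of both groups were made equal, to 0.0060. The row spans chromosome 5 from 137285839 to 137295664, where the annotation has Ache from 137287519 to 137294466 and Ufsp1 from 137294629 to 137295665 on the same strand.

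Runx1, a transcription factor gene that denervation induces in rodent muscle, had the largest fall among the members as a ratio of FPKM. It was at 2.66 FPKM in WT (interval 2.08 to 3.25) and at 1.84 in MKO (interval 1.43 to 2.25). The MKO value lay under the WT interval. Runx1 fell 1.45-fold, with a log2 ratio of -0.54, an SE of 0.23; the authors' deposited table gave q = 0.00338. With a pseudocount of 5 its log2 ratio was -0.16, a smaller fall than the -0.28 of Chrna1. Its row covers chromosome 16 from 92601466 to 92826074, where an antisense RNA, Gm26626, lies inside the gene.

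Runx1 is also a gene of blood cells. Of 10 tested markers of myeloid and other blood cells, all 10 were at lower FPKM in MKO, 5 fell and none rose, and for 9 the p-value of the authors' deposited table was under 0.05 before adjustment. Of all tested rows 56.6% were at lower FPKM in MKO, 2.25% were called lower and 13.7% had such a p-value under 0.05. The summed FPKM of the 11 markers with their own row was 215 in WT and 168 in MKO. The 5 that fell were Cd68, Mrc1, Itgam, Adgre1 and Lyz2. Itgam, an integrin of myeloid cells, fell 1.63-fold from 3.25 to 1.99 FPKM, with q = 0.00338 in the authors' deposited table. Ptprc, the leukocyte antigen CD45, was at 1.51 and 1.35 FPKM with q = 0.691 in the authors' deposited table. Spi1, a myeloid transcription factor gene, was at 4.14 and 3.02 with q = 0.0542. No marker with its own row was listed at 0 in both groups. The part of these cells in the Runx1 value was not tested.

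**Figure D3:**
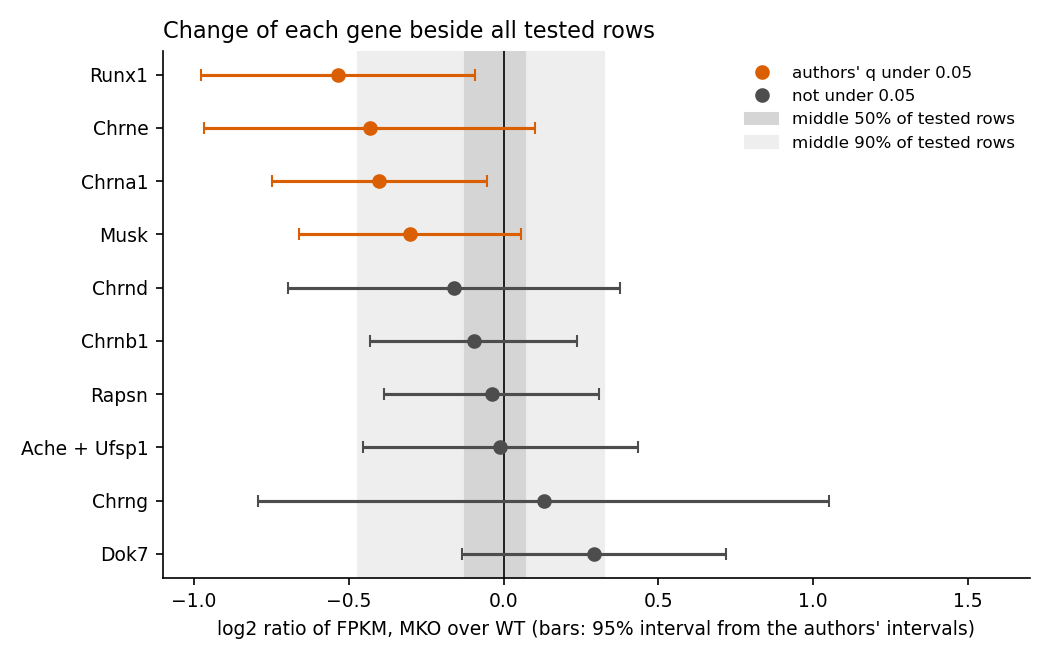
Log2 ratio of FPKM, MKO over WT, for each gene, with bars for the 95% interval that follows from the authors' bounds. Orange points passed the authors' q of 0.05, and the grey bands hold the middle 50% and 90% of 14100 tested rows above 0 in both groups. Bars of Chrna1 and Runx1 stay below 0, and those of Chrne and Musk, also called, cross it.

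In WT the members ranged over 66.5-fold, from Chrnb1 at 34.5 FPKM to Chrng at 0.518. The WT order was Chrnb1, Rapsn, the Ache row, Musk, Chrna1, Chrne, Dok7, Runx1, Chrnd and Chrng. The intervals of neighbours overlapped in 6 of the 9 neighbouring pairs of that order. The intervals were apart between Chrna1 and Chrne, between Dok7 and Runx1 and between Chrnd and Chrng. In MKO the order was the same except that Dok7, at 5.77 FPKM, stood above Chrne, at 4.71, and the intervals of this pair overlapped in both groups. The ratio of Chrne to Dok7 went from 1.35 to 0.816, a log2 change of -0.72 with a 95% interval of -1.41 to -0.04. Of 7 such ratios between members, this one and that of Musk to Dok7, at -1.15 to -0.04, had intervals that left out 0. The pairs were chosen after the values were seen and without adjustment for the number computed, so these intervals are no independent support. In MKO the Ache row and Musk were apart as well, and 5 of 9 neighbouring pairs overlapped.

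The authors' intervals were wide for the weak members. The distance from the WT FPKM to a bound was 16.8% of the value for Chrnb1, 17.1% for Chrna1, 26.4% for Chrnd and 46.4% for Chrng. Of all tested rows 4.03% had a lower log2 ratio than Runx1, 5.79% a lower one than Chrne, 6.57% a lower one than Chrna1 and 9.63% a lower one than Musk. At the other end, 94.1% of tested rows had a lower ratio than Dok7.

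**Figure D4:**
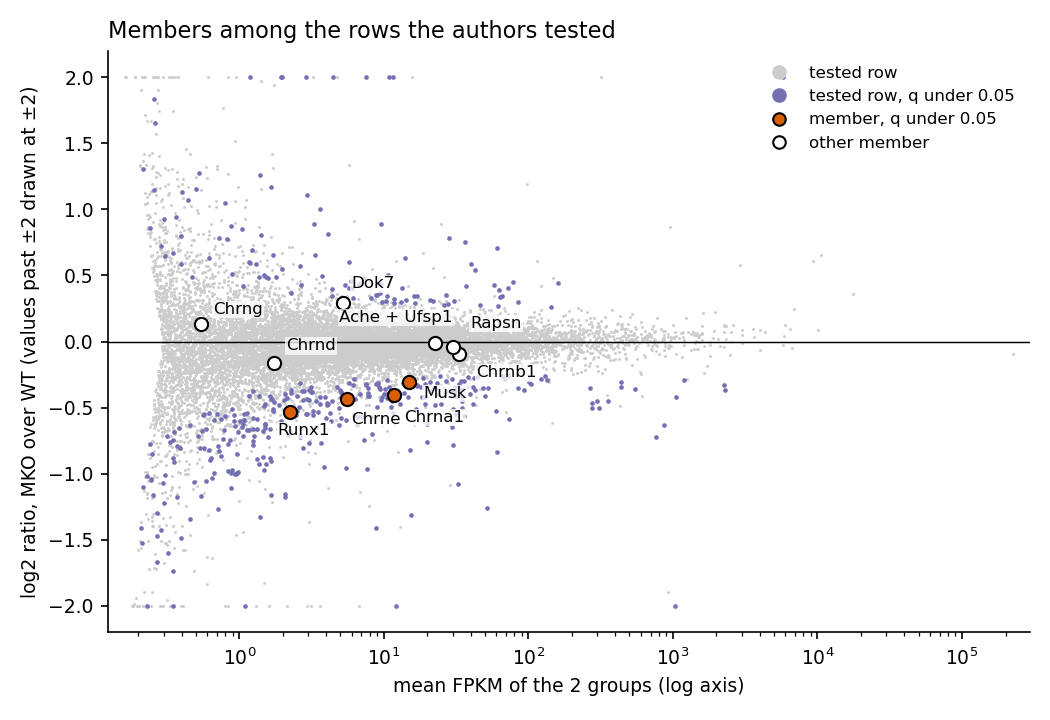
Log2 ratio of FPKM, MKO over WT, against the mean FPKM of both groups on a log axis, for tested rows above 0 in both groups (grey), those past the authors' q of 0.05 (violet) and the members (large circles, orange where called). The members lie among the tested rows, and Runx1 alone is outside the range of -0.47 to 0.33 that holds their middle 90%.

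Other genes of the synapse were read from lists. Of 34 further postsynaptic and basal lamina genes, 32 had a tested row of their own, 1 fell and none rose. That gene was Sntb1, which encodes beta-1-syntrophin of the dystrophin complex and fell from 3.43 to 2.65 FPKM, with q = 0.0185 in the authors' deposited table. Scn4a, the sodium channel of the muscle fibre, had 102 FPKM in WT against 103 in MKO, and Ctnnb1, beta-catenin, had 83.3 and 82.3. Plec, which encodes the linker plectin, was at 79.4 and 76.8 FPKM. The list had 19 genes lower and 13 higher in MKO and a median log2 ratio of -0.02, the same as all tested rows. Among those rows 2.25% were called lower and 0.92% higher.

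The genes of the ligand and its receptor were named for their role after their values were seen. Agrn, which encodes agrin, was at 2.79 FPKM in WT against 2.83 in MKO, and Lrp4 at 2.27 and 2.25. Colq, the collagen tail that holds acetylcholinesterase in the cleft, was at 2.40 and 2.18 FPKM. The differences lay inside the authors' intervals for all 3 genes, with q of at least 0.748 in the authors' deposited table.

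Of 13 genes of the neuregulin, ErbB and ETS axis, 10 were tested, 1 fell and none rose. The shares of all tested rows were 2.25% called lower and 0.92% called higher. Etv5, an ETS-family factor gene concentrated in nuclei under the synapse in mouse muscle, fell from 6.83 to 5.45 FPKM, with q = 0.0203 in the authors' deposited table. Gabpa, which encodes the N-box binding subunit of GABP, was at 9.34 and 9.40 FPKM. Ets2, another ETS factor gene, was at 15.4 and 16.7, the kinase gene Prkca at 12.4 and 11.9 and Mapk8, the JNK1 gene, at 7.84 and 7.71. Nrg1, the neuregulin ligand gene, was listed at 0 in both groups. The tested genes were evenly split, 5 lower and 5 higher.

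Of 23 denervation-responsive muscle genes 21 were tested, 6 fell and none rose, and 16 stood lower in MKO. The median log2 ratio of FPKM + 1 was -0.14. Over all tested rows 2.25% were called lower, 56.6% stood lower and the median was -0.02. The list was not split by the direction in which denervation moves a gene. The list was drawn up with earlier results of these libraries known, so its direction is not independent of them. Gadd45a, a stress and denervation gene, fell from 34.8 to 27.4 FPKM, with q = 0.00852 in the authors' deposited table. Cdkn1a, the cell cycle inhibitor p21, fell from 38.0 to 30.9 FPKM, with q = 0.0236. Trim63, Actc1, Myh3 and Myh8, for a ubiquitin ligase, the cardiac actin and developmental myosins, were the others. Actc1 fell 1.78-fold from 77.6 to 43.6 FPKM and was the only gene of the list whose intervals lay apart. Trim63 fell 1.27-fold from 298 to 234 FPKM. Both had q = 0.00338 in the authors' deposited table. Myog, the gene of myogenin, was at 20.9 and 17.5 FPKM with q = 0.119 in the authors' deposited table, and Myod1 at 12.0 and 13.0 with q = 0.771. The abundant genes Cacng1, a calcium channel subunit, and Sln, sarcolipin, were at 431 and 409 and at 91.6 and 89.7 FPKM. Fbxo32, the ubiquitin ligase atrogin-1, was at 80.2 and 69.7. Igfbp5 was at 75.5 and 81.7, among the 5 tested genes of the list at higher FPKM in MKO. Cacng1, Sln, Fbxo32 and Igfbp5 did not pass, while Trim63 and Actc1, also abundant, fell as given above.

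Of 16 neuronal nicotinic and muscarinic receptor genes 13 were not tested by the authors, and 5 of these were listed at 0 in both groups. Chrna9, an alpha subunit known from cochlear hair cells, fell 1.87-fold from 2.15 to 1.15 FPKM, with q = 0.00338 in the authors' deposited table. Chrna10, its partner subunit there, was at 5.44 and 5.35 FPKM with q = 0.997. Chrna2 was at 1.92 and 1.49 FPKM with q = 0.103 in the authors' deposited table.

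Motor neurons have their cell bodies in the spinal cord, and transcripts of the motor nerve terminal were at or near 0 in the muscle. Chat, Slc18a3, Syt2 and Mnx1 were listed at 0 in both groups, and the 12 listed genes summed to 0.911 FPKM in WT against 0.616 in MKO. Schwann cell genes were present: 10 genes summed to 94.5 and 87.2 FPKM, 9 were tested, 7 of them at lower FPKM in MKO, and the p-value of the authors' deposited table was under 0.05 before adjustment for none. Among satellite cell and myoblast genes none of 4 tested passed, with sums over 5 genes of 51.3 and 47.4 FPKM. Of 8 fibroblast genes Col1a1 and Col3a1 fell, 6 were lower, and the sums were 396 and 370 FPKM. All 6 endothelial genes were higher in MKO, none passed, and the sums were 72.3 and 77.9 FPKM. Among 8 tested fibre genes Myh2, the type IIa myosin gene, fell from 487 to 384 FPKM, with q = 0.00338 in the authors' deposited table. Over all tested rows 56.6% were at lower FPKM in MKO and 2.25% were called lower. The part of these cell types in the values of the members was not tested.

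**Figure D5:**
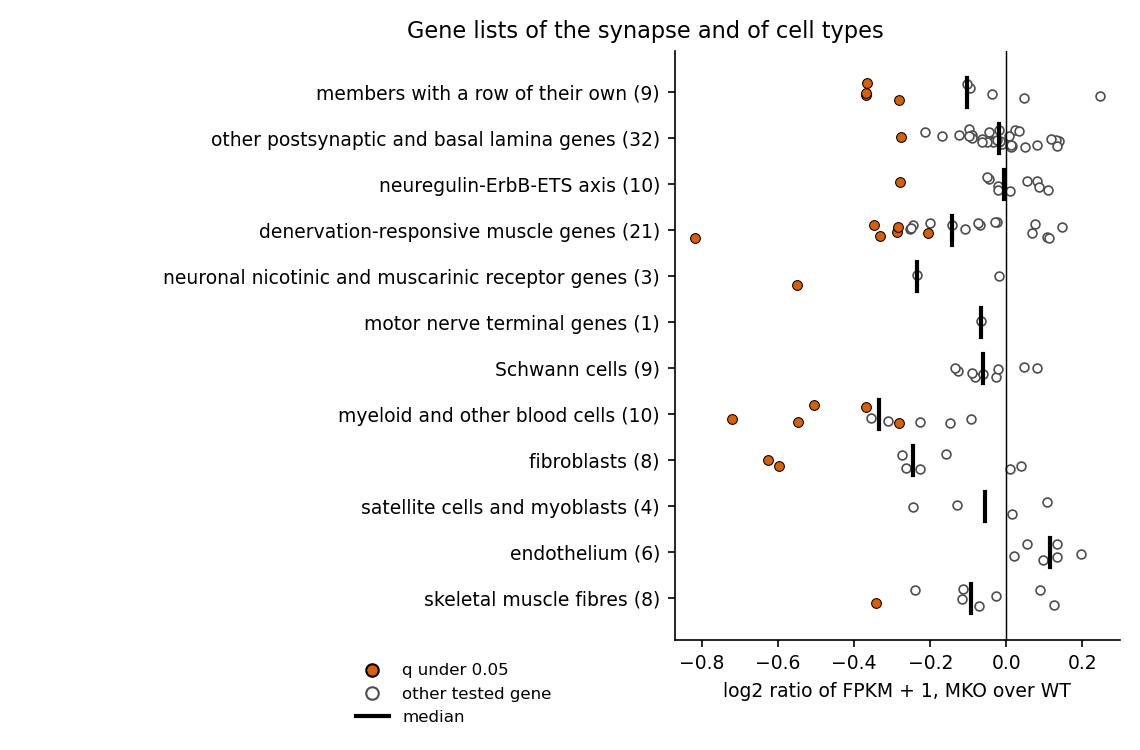
Log2 ratio of FPKM + 1, MKO over WT, of each tested gene with its own row, by list (number of genes in brackets), with orange points where the authors' q was under 0.05 and a black bar at the list's median. Among the members 4 points are orange, beside 1 of 32 other postsynaptic genes, 6 of 21 denervation-responsive genes and 5 of 10 blood cell markers. Orange points also stand for 2 of 8 fibroblast, 1 of 10 neuregulin axis, 1 of 3 neuronal receptor and 1 of 8 fibre genes. Of all tested rows 2.25% were called lower and 0.92% higher.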

How the data were processed

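Gastrocnemius RNA of 2 WT and 2 Fundc1-MKO mice went into NEBNext Ultra libraries, per the labels' protocols. Cufflinks 2.2.1, TopHat2 2.0.14, FastQC 0.11.3, bcl2fastq and the build mm10 are listed, without roles, per the submitters' processing notes. The deposited table holds, per the file headers, 1 FPKM per group with the authors' interval, the authors' test statistic (a score), and p-value and q-value. The annotation used and the depth were not stated in the labels. The authors' p-value is no lower than 5e-05, a value shared by 209 tested rows.

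Ratios were computed here from the deposited FPKM. Taking a bound as 2 SD gave an SE whose ratio matched the authors' statistic within 1% in 99.9% of 14100 rows. Whether these bounds include the spread between animals was not stated in the labels. The 95% intervals extend 1.96 SE on each side. Starts count from 1 in mm10; overlapping genes are from GENCODE M21. The genes and lists were chosen with earlier results of these data known. Named genes were the 10 members, list genes with q under 0.05 and up to 4 abundant ones per list. Alternatives were other thresholds, call rules, pseudocounts, scalings and filters on low values. Python 3.11.15, numpy 2.4.6, pandas 2.3.3, scipy 1.17.1 and matplotlib 3.10.9 were used.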

Additional observations from a re-analysis of the deposited data

How the results depend on the processing

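Of the 9 members 4 passed q under 0.05, and the same number q under 0.10, by the authors' deposited table. At q under 0.01 the count was 2, by a normal reading of the statistic with Benjamini-Hochberg adjustment 0 and by intervals apart 0. Of all tested rows 2.25% were called lower and 0.92% higher at q under 0.05. The adjusted normal reading was passed by 0.198% of them, and 0.715% had intervals apart. For q under 0.01 and under 0.10 the share of all tested rows was not computed. Dok7 joins at an unadjusted p under 0.05, which 13.7% of tested rows reached. With bounds at 1 SD instead of 2, the intervals lay apart for 4 members, Chrna1, Chrne, Musk and Runx1, beside 5.68% of tested rows. The 4 lists of synaptic, neuregulin, denervation and other receptor genes held 32, 10, 21 and 3 tested genes. Their 9 calls became 5 at q under 0.01 and 16 at an unadjusted p under 0.05. By the adjusted normal reading 1 remained, and by intervals apart 1. The median log2 ratio of the members ranged from -0.19 to -0.08 over 7 other pseudocounts, scalings and filters. The joint Ache and Ufsp1 row turned from -0.01 to 0.0060 at equal medians, and Runx1 went to -0.16 with a pseudocount of 5. No paired analysis was possible because the table holds 1 value per group, and leaving out a replicate was not run for the same reason.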
